A study of Mus musculus with 2 samples.

Results

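The genes described here are 10 cold-inducible and heat shock genes, chosen by symbol among the 31053 features of the count matrices: Cirbp, Rbm3, Srsf5, Hspa1a, Hspa1b, Dnajb1, Hspa8, Hsp90aa1, Hsp90ab1 and Hsph1. All 10 symbols were present in both matrices. Single-cell 3′ transcriptomes had been made from cells of the hypothalamic and thalamic region of E15.5 wild-type mouse embryos of the outbred CD1 stock, sorted for the surface proteins Cd11b and Cd45. The control library pooled tissue of 10 embryos from 1 untreated dam. The stressed library pooled tissue of 5 embryos from 1 dam that was placed at 4 °C for 30 min on each of 5 days, from E11.5 to E15.5. The embryos of both pools carried no transgene. Their tissue was dissected on ice, and their cells were stained at 4 °C before sorting, so all cells of both libraries had been in the cold.

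With 1 library per condition no test between conditions was possible, and cells of 1 library are not replicates. Levels are UMIs (unique molecules counted) summed over the cells of a class and scaled to a class total of 1000000 (CPM). Where 2 values stand together without a library named, the first is the control library's. Every interval is a 95% interval for counting error only, exact Poisson for a level and exact binomial for a share of cells. It leaves out differences between cells, embryos, dams and libraries. A gene was counted as higher or lower where 2 sums differed by at least 1.5 times, among features that reached 50 CPM in at least 1 of them. In sums of this kind, fewer cells with a transcript and less transcript per cell cannot be told apart.

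Cirbp and Rbm3 encode small RNA-binding proteins that are best known for rising when cells are mildly cooled, and Srsf5 encodes a splicing factor of the SR family. The heat shock genes encode chaperones that hold or refold other proteins. Heat shock factor 1 drives the inducible HSP70 genes Hspa1a and Hspa1b within minutes of heat or other protein damage, together with Dnajb1, an HSP40 co-chaperone, and Hsph1, an HSP110 nucleotide exchange factor. Hspa8, the constitutive HSP70, and the HSP90 genes Hsp90aa1 and Hsp90ab1 are expressed in most cells, and Hsp90aa1 is the more inducible HSP90. Enzymatic or mechanical dissociation of tissue can induce the inducible genes together with immediate early genes such as Fos and Jun.

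The 250 bases upstream of annotated starts were read for 6 of the 10 genes from the RefSeq promoter table of GRCm38.p6, which gave 9 windows. Windows are printed for the 4 genes in which a motif was found: Cirbp (its first start), Hspa1a, Hspa1b and Hsph1 (its first start). The second Cirbp window, the Srsf5 window and both Dnajb1 windows held none, and the second Hsph1 window overlaps the first. Capitals mark matches on either strand to TCCCCGCC, described as a mild-cold element of the Cirbp promoter, or to 2 adjoining units of the heat shock element in either order, GAANNTTC or TTCNNGAA, which each read the same on both strands.
Cirbp, chr10:80167589-80167838, plus strand: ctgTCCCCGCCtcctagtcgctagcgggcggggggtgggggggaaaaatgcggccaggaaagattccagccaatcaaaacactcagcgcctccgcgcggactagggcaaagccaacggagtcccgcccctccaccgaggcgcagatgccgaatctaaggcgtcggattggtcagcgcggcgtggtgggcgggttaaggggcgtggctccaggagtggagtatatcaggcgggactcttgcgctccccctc
Hspa1a, chr17:34972157-34972406, minus strand: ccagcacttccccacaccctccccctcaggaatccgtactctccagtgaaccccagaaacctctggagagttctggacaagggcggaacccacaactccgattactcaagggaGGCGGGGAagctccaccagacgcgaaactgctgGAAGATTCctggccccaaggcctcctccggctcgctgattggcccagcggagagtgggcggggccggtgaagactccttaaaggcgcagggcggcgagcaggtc
Hspa1b, chr17:34959239-34959488, minus strand: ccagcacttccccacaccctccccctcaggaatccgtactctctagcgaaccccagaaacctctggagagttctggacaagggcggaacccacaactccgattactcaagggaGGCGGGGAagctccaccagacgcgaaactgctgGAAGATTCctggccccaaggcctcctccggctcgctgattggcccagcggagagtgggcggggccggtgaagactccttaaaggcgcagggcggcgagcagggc
Hsph1, chr5:149636316-149636565, minus strand: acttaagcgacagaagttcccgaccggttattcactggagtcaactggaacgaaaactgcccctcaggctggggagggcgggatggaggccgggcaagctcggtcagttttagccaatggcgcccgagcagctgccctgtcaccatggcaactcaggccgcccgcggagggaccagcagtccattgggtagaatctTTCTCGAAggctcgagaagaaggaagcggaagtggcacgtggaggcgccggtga
The first Cirbp window held TCCCCGCC once, from 247 to 240 bases before the start. Hspa1a and Hspa1b held its reverse complement from 137 to 130 bases and a paired heat shock unit, GAAGATTC, from 104 to 97 bases before the start. Hsph1 held TTCTCGAA from 54 to 47 bases before the start. Of all 32817 windows of this length, 4.64% held TCCCCGCC and 12.8% held a paired unit, so neither match is particular to these genes. The 3-unit forms GAANNTTCNNGAA and TTCNNGAANNTTC, which 0.466% of the windows held, occurred in none of the 9 windows, and the search was widened to paired units after that was seen. Hspa1a and Hspa1b differed at 3 of 250 bases, and on chromosome 17 the annotated genes lie at 34969190 to 34972156 and 34956436 to 34959238 on the minus strand (GENCODE M21). In the last 500 bases of the longest coding transcript, from which 3′ reads come, no stretch of 75 bases of either gene occurred in a transcript of another gene. For Hspa8 80.8% of such stretches also occurred in transcripts of 8 other annotated genes, most often Gm15459, so its counts are uncertain.

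The control library held 1156 barcodes with 2833015 UMIs and the stressed library 1467 barcodes with 6582188 UMIs. After cells with under 500 genes or over 10% mitochondrial UMIs were left out, 1068 and 1407 cells remained, with medians of 2044 and 3870 UMIs. Cells were classed by the summed UMIs of fixed markers: 706 control and 1174 stressed cells were microglia-like, 218 and 161 neural-like, 63 and 18 border-associated macrophage-like, and 22 and 19 monocyte or granulocyte-like. The labels call all cells microglia. In the microglia-like sums the 11 microglia markers stood at 6826 and 7067 CPM, with none at 0, against 121 and 170 CPM in the neural-like sums. The same markers define the classes, so this contrast is set by the gate. Neurons and neural progenitors are not known to carry the sorted proteins. Y-linked transcripts were present in the control microglia-like cells (102 CPM) and amounted to 1 UMI in the stressed ones, so the pools also differed in sex make-up. Of the barcodes, 13 occurred in both libraries, with 502 to 735 UMIs in the smaller partner, and 11 of the 13 cells kept from them were neural-like. The neural-like ratios that the text turns on are therefore also given without them.

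In microglia-like cells the cold-inducible genes differed between the libraries by less than counting error when all cells were summed. Cirbp gave 113 UMIs, or 60.8 CPM (50.1–73.1), in the control library and 329 UMIs, or 60.9 CPM (54.5–67.8), in the stressed library, a ratio of 1.00. Rbm3 stood at 519 CPM (487–553) and 517 CPM (498–537), a ratio of 0.997. Srsf5 stood at 184 CPM (165–204) and 167 CPM (156–178), with a log2 ratio of −0.14 (−0.32 to 0.04). Intervals of the libraries overlapped for each of the 3 genes. The counting interval of the Rbm3 ratio runs from 0.926 to 1.07 times, and that of Cirbp, on fewer UMIs, from 0.806 to 1.25 times. Among cells with Xist and without Y transcripts, Cirbp stood at 47.7 CPM on 30 UMIs in the control and 61.8 CPM in the stressed library, log2 0.38. This lies outside the interval of the sum over all cells. That interval does not measure the counting error of a ratio on 30 control UMIs, so no difference is read from it.

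The constitutive chaperones differed by small amounts and in both directions. Hspa8 stood at 630 CPM (595–668) in the control and 699 CPM (677–722) in the stressed microglia-like cells, a log2 ratio of 0.15 (0.05 to 0.24). Hsp90ab1 stood at 906 CPM (863–950) and 825 CPM (801–849), a log2 ratio of −0.13 (−0.22 to −0.05). For these 2 genes the intervals of the libraries did not overlap, yet both ratios were under 1.5 times. Hsp90aa1 was at 198 CPM (178–219) and 208 CPM (196–220), with overlapping intervals. Dnajb1 gave 57 UMIs (30.7 CPM) and 152 UMIs (28.1 CPM), and Hsph1 32 UMIs (17.2 CPM) and 95 UMIs (17.6 CPM), so both were under the 50 CPM minimum. Of the 6 genes at 50 CPM or more, 0 passed 1.5 times, against 4.61% of the 2669 features tested, and their median log2 ratio was 0.00 beside −0.06 over all features. TMM scaling, which moved all ratios up by 0.10, left the count at 0 and turned the split of all features from 41 higher and 82 lower to 72 and 44.

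The inducible HSP70 pair was nearly absent. In the control library, Hspa1a gave 6 and Hspa1b 11 UMIs in 4 of 706 microglia-like cells, and 1 of these cells held 12 of the 17. In the stressed library, they gave 3 and 4 UMIs in 4 of 1174 cells. The log2 ratios of −2.54 (−5.17 to −0.31) for Hspa1a and −3.00 (−5.11 to −1.25) for Hspa1b therefore describe a handful of cells, most of all 1 control cell, and neither gene reached 50 CPM. Of the 6 and 11 control UMIs, 4 and 9 came from cells with Y transcripts and no Xist. Cells with Xist and no Y transcript held 2 and 2. The stressed library had 0 microglia-like cells of the former kind, and the part of sex was not tested. Neural-like cells of the control library held 1 UMI of the pair, and those of the stressed library 0 UMIs. With the 3 counts that a sum of 0 is taken to allow, that is up to 4.38 CPM. Border-associated, monocyte-like and vascular-like cells held 0 UMIs in both libraries, on 8 to 63 cells each. Other heat shock genes were read in the 2 sets of 4 cells with a UMI of the pair. Their intervals overlapped between the 2 sets, and 0 UMIs in the control set allows up to 325 CPM (exact Poisson). The control cells had 1852 CPM (1147–2831) of Hspa8, 1764 CPM (1077–2724) of Hsp90ab1 and 529 CPM (194–1152) of Hsp90aa1, against 623, 900 and 196 CPM in the other 702 cells, and 0 UMIs of both Dnajb1 and Hsph1. The stressed cells had 1116 CPM (742–1613) of Hspa8, 1076 CPM (709–1566) of Hsp90ab1 and 1036 CPM (677–1518) of Hsp90aa1, against 697, 824 and 204 CPM in the other 1170. They also had 7 UMIs of Hsph1, or 279 CPM (112–575), against 16.4 CPM, and 2 UMIs of Dnajb1. The intervals of Hsp90ab1 in the stressed cells overlapped, and those of Hsp90aa1 in the control cells did as well. Immediate early genes stood at 1058 and 996 CPM in the 2 sets of 4 cells and at 437 and 479 CPM in the rest. With 4 cells per library no pattern is read from these values.

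Across the classes, Cirbp and Hsp90aa1 were higher in neural-like than in microglia-like cells in both libraries. Hsph1 was counted as higher in the control library, at 59.3 against 17.2 CPM. It reached the 50 CPM minimum there only through the neural-like sum. In the stressed library Hsph1 also stood above its microglia-like level, but it was under the 50 CPM minimum in both sums. The difference was widest for Cirbp, with control levels of 402 CPM (346–464) against 60.8 CPM and stressed levels of 332 CPM (290–378) against 60.9 CPM. These are ratios of 6.60 and 5.45, or log2 2.72 (2.38 to 3.07) and 2.45 (2.20 to 2.69). With every cell thinned to 1100 UMIs, Cirbp was found in 40.9% of control neural-like cells (33.5 to 48.7%) and 33.1% of stressed ones (25.6 to 41.3%), and in 6.80% (4.98 to 9.02%) and 6.50% (5.16 to 8.07%) of microglia-like cells. Before thinning the shares were 53.7% and 65.8% of neural-like cells and 14.3% and 24.2% of microglia-like cells. The 16 neural markers, which define the neural-like class, stood at 10788 CPM in control neural-like and at 80.2 CPM in control microglia-like cells (12025 and 84.4 CPM in the stressed library). Without the barcodes found in both libraries, the log2 ratios of Cirbp were 2.89 and 2.56, and those of Hsp90aa1 0.98 and 1.02. Hsph1 was then at log2 1.34 in the stressed library.

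**Figure D1:**
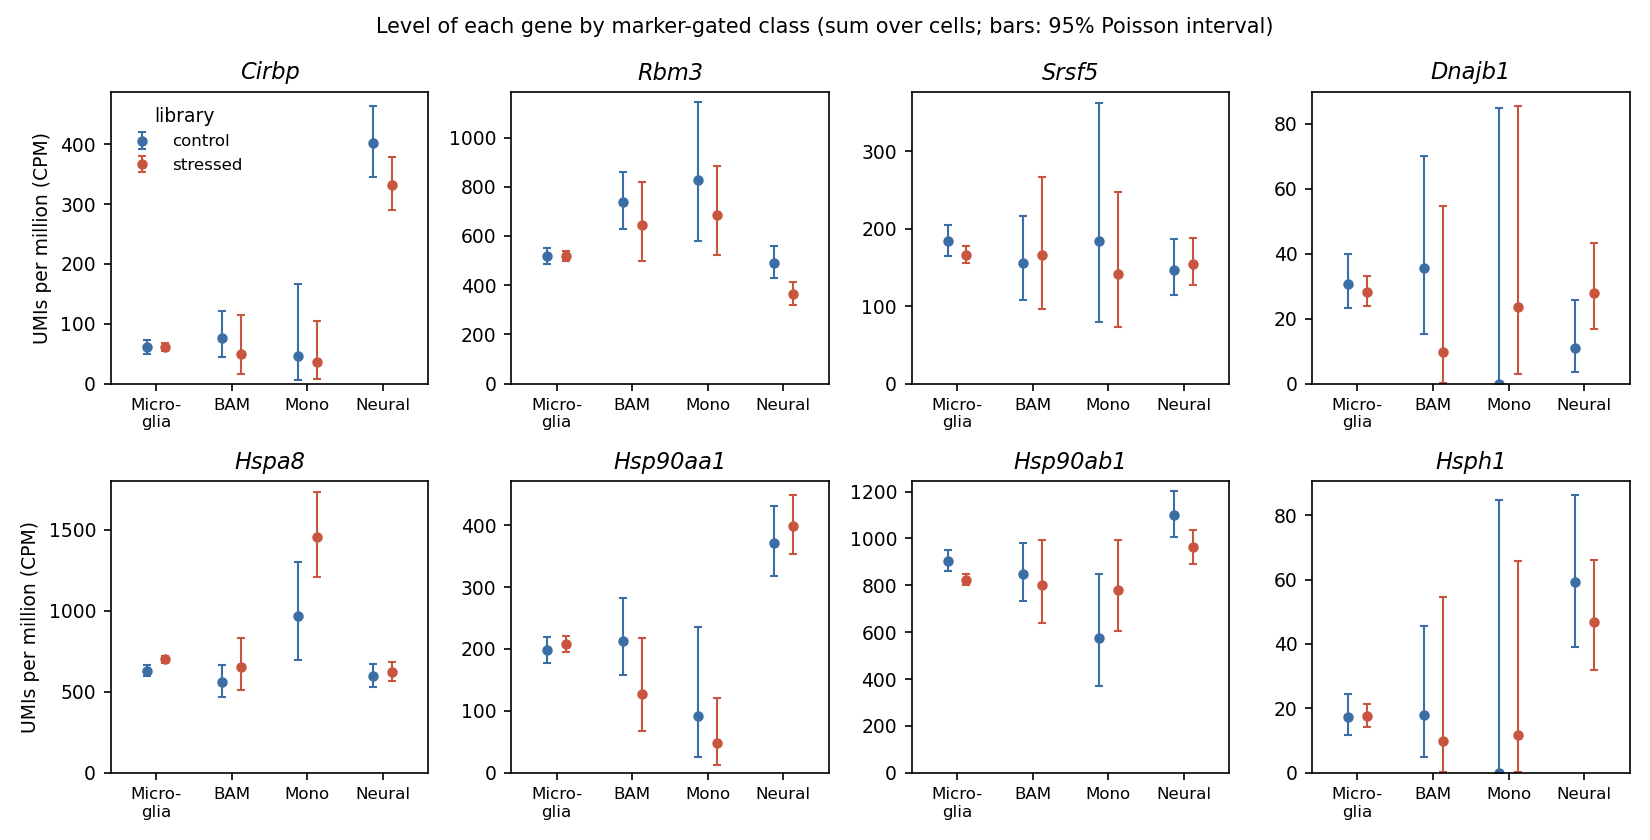
Level of 8 genes in 4 marker-gated classes (x axis; BAM, border-associated macrophage-like; Mono, monocyte or granulocyte-like) in CPM of the class sum (y axis, from 0, its scale differing between panels); points are libraries, bars 95% Poisson intervals. Cirbp, Hsp90aa1 and Hsph1 stand highest in neural-like cells of both libraries, and Hspa8 is highest in the few monocyte-like cells.

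Hsp90aa1 stood at 371 CPM (317–431) and 399 CPM (353–449) in neural-like cells, log2 ratios to microglia-like cells of 0.91 (0.64 to 1.18) and 0.94 (0.75 to 1.13). Hsp90aa1 depended in part on 1 cell: in the stressed library it held 55 of the 273 UMIs, and without the 1% of cells richest in the gene the log2 ratio was 0.66. That cell had 17821 UMIs and also 8 of the 32 Hsph1 UMIs of its class. With TMM scaling, which lowered the neural-like ratios by 0.46 and 0.57, Hsp90aa1 stood at log2 0.45 and 0.37, under 1.5 times, and Cirbp at 2.26 and 1.88. Hsph1 gave 27 UMIs, or 59.3 CPM (39.1–86.2), and 32 UMIs, or 46.8 CPM (32.0–66.0), in neural-like cells, log2 1.78 (0.99 to 2.57) and 1.41 (0.79 to 2.00) above microglia-like cells. Without the barcodes found in both libraries 19 of the 27 control UMIs remained, and Hsph1 fell under the 50 CPM minimum there. The cells richest in Hsph1, the top 1%, held 40.7% and 34.4% of its neural UMIs. Hsp90ab1 was slightly higher in neural-like cells, by log2 0.28 (0.14 to 0.43) and 0.22 (0.10 to 0.34), and this sign turned with TMM scaling, to −0.18 and −0.35; without the barcodes found in both libraries it was 0.26 and 0.19. Rbm3 did not share the pattern of Cirbp: neural-like and microglia-like cells stood at 492 and 519 CPM in the control library, log2 −0.08 (−0.29 to 0.13), and at 364 and 517 CPM in the stressed library, log2 −0.51 (−0.70 to −0.32), or −1.08 with TMM scaling. Without the barcodes found in both libraries Rbm3 was at log2 0.02 and −0.40. Dnajb1 gave 5 UMIs in control and 19 UMIs in stressed neural-like cells. Past 1.5 times were 3 of 7 measured genes in the control library, against 71% of the features tested (2 of 6 without the barcodes found in both libraries, where Hsph1 was not measured), and 2 of 6 in the stressed library, against 68%. Their median log2 ratios were 0.28 and 0.06, beside 0.46 and 0.37 over all features. Nothing is read from these shares, which lie below the background.

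Other genes of the same pathways lay on both sides. Hsf2, a heat shock factor, stood at 288 and 183 CPM in neural-like and 42.0 and 29.4 CPM in microglia-like cells. The HSP110-family gene Hspa4l stood at 54.9 and 58.5 CPM against 4.31 and 3.70 CPM. The HSP90 co-chaperone gene Stip1 was at 90.0 and 73.1 CPM against 44.7 and 39.4 CPM. Hsp90b1, the HSP90 of the endoplasmic reticulum, stood at 173 and 247 CPM against 650 and 607 CPM. Dnajb11, a J-domain protein of that compartment, stood at 35.1 and 33.6 CPM against 114 and 94.9 CPM. Hspa5, its HSP70, stood at 130 against 307 CPM in the control library and at 165 against 237 CPM in the stressed one, under 1.5 times. Of 9 measured HSP90 co-chaperone and family genes, 3 were higher and 1 lower in each library, with medians of 0.08 and 0.17 beside 0.46 and 0.37 over all features. Of 11 SR and Clk genes measured, 5 were higher and 1 lower in the control library, and 4 higher in the stressed library. Both lists lie below the 71% and 68% of all features.

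In border-associated macrophage-like cells, Rbm3 was the gene of the list that stood furthest above microglia-like cells in both libraries. It was at 738 CPM (630–860) in the control and 645 CPM (499–821) in the stressed border-associated cells, log2 0.51 (0.26 to 0.75) and 0.32 (−0.06 to 0.67) above microglia-like cells. Cirbp stood at 75.6 CPM (44.0–121) and 48.9 CPM (15.9–114) on 17 and 5 UMIs. Past 1.5 times were 0 of 6 measured genes in the control library, against 40.2% of features. In the stressed library 1 of 6 passed, against 46.9%: Hsp90aa1, lower at 127 CPM on 13 UMIs. The medians were 0.01 and −0.07, beside −0.03 and 0.02 over all features. Rbm3 stood at 827 and 686 CPM in monocyte-like cells, so its higher level was not particular to border-associated cells. The monocyte-like sums rest on 22 and 19 cells. There Hspa8 stood at 964 CPM (695–1304) and 1454 CPM (1209–1735), with intervals above those of the microglia-like, border-associated and neural-like sums, and Hsp90aa1 at 91.8 and 47.3 CPM on 4 UMIs each.

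**Figure D2:**
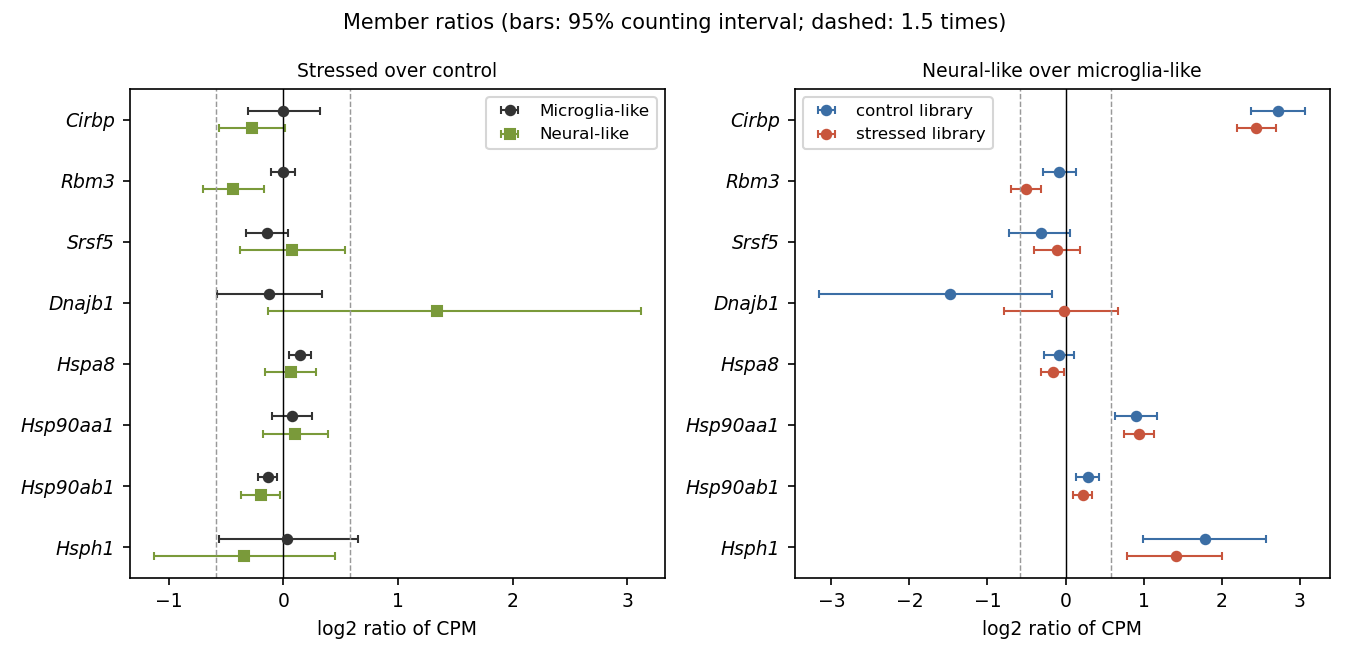
Log2 ratios of CPM (x axis) for 8 genes (y axis): stressed over control in microglia-like and neural-like cells (left) and neural-like over microglia-like cells in each library (right), with 95% counting intervals and 1.5 times as dashed lines. In microglia-like cells all points lie within the dashed lines, and Cirbp lies at 2.72 and 2.45 on the right.

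Between the libraries, the neural-like sums of the measured genes differed by less than 1.5 times in each case. Rbm3 was at 492 CPM in the control and 364 CPM in the stressed neural-like cells, log2 −0.43 (−0.70 to −0.17), and Cirbp at 402 and 332 CPM, log2 −0.28 (−0.56 to 0.01). Hsp90ab1 stood at 1102 and 962 CPM, log2 −0.20 (−0.37 to −0.03), the same direction as in microglia-like cells. Hspa8 stood at 597 and 624 CPM, Srsf5 at 147 and 155 CPM and Hsp90aa1 at 371 and 399 CPM, each with overlapping intervals. Hsph1, at 59.3 and 46.8 CPM, had overlapping intervals as well. Of 7 measured genes 0 passed 1.5 times, against 16.9% of features, with a median of −0.20 beside −0.12 over all features. Without the barcodes found in both libraries 0 of 6 passed, with Rbm3 at log2 −0.42 and Cirbp at −0.33. When only cells with Xist and without Y transcripts were summed, Rbm3 stood at log2 −0.61 and passed. Dnajb1, under the 50 CPM minimum, gave 5 and 19 UMIs. Haemoglobin transcripts, at 215 CPM in the control and 21114 CPM in the stressed neural-like sum, came in large part from 1 cell with 7594 such UMIs.

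Within each library, Rbm3 and Hsp90aa1 were higher in cycling than in non-cycling microglia-like cells, while Hsp90ab1 and Srsf5 differed by less than counting error. A cell was called cycling where at least 5 of its UMIs, after thinning to 1100, came from 39 S phase and 50 G2/M genes, none of them among the 10. Of the microglia-like cells deep enough, 26.7% of control (173 cells) and 24.0% of stressed cells (281) were cycling, with 46 and 91 cells within 1 UMI of the limit. Rbm3 stood at 619 CPM (556–687) in cycling and 474 CPM (437–515) in non-cycling control cells. In the stressed library it stood at 624 CPM (586–664) and 472 CPM (450–494). The log2 ratios were 0.38 (0.19 to 0.58) and 0.40 (0.29 to 0.52), and the intervals of cycling and non-cycling cells did not overlap in either library. The level was highest in cells with more G2/M than S transcripts, at 667 CPM (control) and 648 CPM (stressed), while cells with more S transcripts were at 499 and 564 CPM. G2/M over S gave log2 0.42 (0.06 to 0.79) and 0.20 (−0.01 to 0.41).

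Hsp90aa1, the inducible HSP90, stood at 250 CPM (211–295) in cycling and 175 CPM (152–200) in non-cycling control cells, log2 0.52 (0.20 to 0.83), and at 275 CPM (251–302) and 179 CPM (165–193) in the stressed library, log2 0.62 (0.45 to 0.80). Its level was above the non-cycling one in S cells, at 290 and 261 CPM, and in G2/M cells, at 235 and 281 CPM. Hsp90ab1, its constitutive paralog, was at 875 against 936 CPM and at 842 against 818 CPM, log2 −0.10 and 0.04, with both intervals crossing 0. Hspa8 was highest in S cells. It was lower in G2/M than in S cells, at 652 against 850 CPM, log2 −0.38 (−0.68 to −0.07), and 653 against 805 CPM, log2 −0.30 (−0.48 to −0.12). Cirbp was at 78.7 CPM on 45 UMIs in cycling and 52.1 CPM on 64 UMIs in non-cycling control cells, log2 0.60 (0.01 to 1.17), and at 64.7 and 58.7 CPM in the stressed library, log2 0.14 (−0.21 to 0.48). Srsf5 was at 163 against 194 CPM and at 167 against 166 CPM.

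Past 1.5 times stood 1 of 6 measured genes in each library, Cirbp in the control, against 18.4% of features, and Hsp90aa1 in the stressed library, against 14.3%. Both lie next to the limit, at 1.51 and 1.54 times, and under TMM or DESeq2 scaling neither passed. The medians of the measured genes were 0.31 and 0.09. Among related genes, 4 of 9 SR and Clk genes were higher in cycling control cells and 3 of 9 in stressed ones, with medians of 0.49 and 0.50 beside 0.03 and 0.06 over all features. Srsf3, at 450 against 295 CPM and 511 against 317 CPM, and Srsf1, at 147 against 87.9 CPM and 124 against 77.1 CPM, were among them, and Srsf5 was not. Ptges3, the HSP90 co-chaperone p23, stood at 306 against 203 CPM and 360 against 242 CPM. Immediate early genes went the other way, with summed levels of 350 against 475 CPM and 406 against 514 CPM in cycling and non-cycling cells. Among cells with an immediate early share at or below the median, the log2 ratio of Rbm3 was 0.32 and 0.41. Haemoglobin transcripts were lower in cycling cells as well, at 80.5 against 4869 CPM and 89.8 against 2361 CPM. Cycling cells were also deeper, with medians of 2759 against 2209.5 UMIs and 4905 against 3768.5 UMIs, and in cells thinned to 1 depth Rbm3 stood 0.20 and 0.35 higher on the log2 scale. The part of immediate early genes, haemoglobin and depth in these differences was not tested further.

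**Figure D3:**
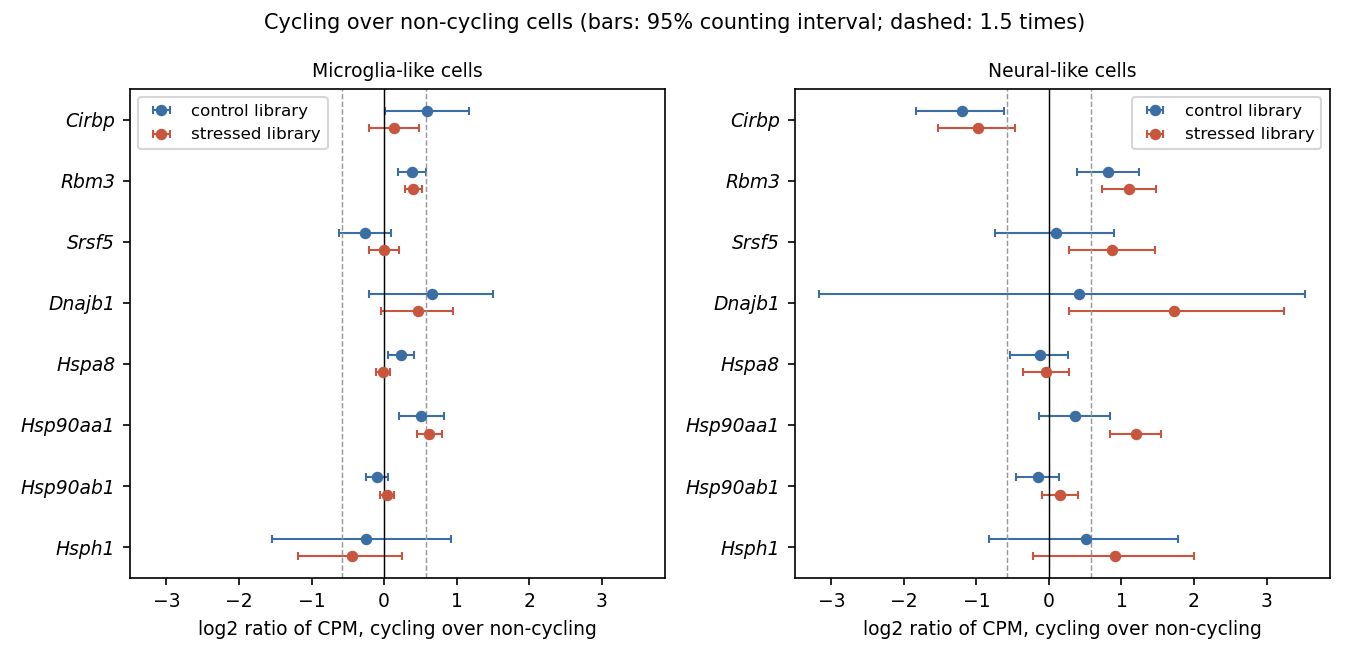
Log2 ratios of CPM, cycling over non-cycling cells (x axis), for 8 genes (y axis) in microglia-like (left) and neural-like cells (right) of each library, with 95% counting intervals and 1.5 times as dashed lines. Rbm3 lies above 0 in all 4 comparisons, and Cirbp lies at −1.20 and −0.98 in neural-like cells.

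Neural-like cells were split by the same gate after the values above had been seen, into 48 cycling and 123 non-cycling cells (control) and 36 and 112 cells (stressed). Rbm3 was again higher in cycling cells, at 661 CPM (532–812) against 375 CPM (306–455) and 588 CPM (486–705) against 274 CPM (229–325), log2 0.82 (0.39 to 1.24) and 1.10 (0.73 to 1.48). Cirbp went the other way. It stood at 211 CPM (141–303) in cycling and 485 CPM (406–575) in non-cycling control cells, and at 193 CPM (136–264) and 381 CPM (327–441) in the stressed library, log2 −1.20 (−1.83 to −0.61) and −0.98 (−1.53 to −0.47). Without the barcodes found in both libraries, the log2 ratios were 0.89 and 1.16 for Rbm3 and −1.18 and −1.04 for Cirbp. Control Hsph1, at log2 0.51 on 10 and 14 UMIs, stood at −1.67 on 2 and 14 UMIs without them. Hsp90aa1 stood at 436 against 339 CPM and at 664 against 290 CPM, and the stressed ratio, log2 1.19, was 0.64 without the 1% of cells richest in the gene. Past 1.5 times were 2 of 7 measured genes in the control library, against 47.4% of features, and 6 of 8 in the stressed library, against 40.5%. Their medians were 0.10 and 0.89, beside 0.04 and 0.14 over all features. In the stressed library Srsf5, Dnajb1 and Hsph1 passed as well. Dnajb1 (55.8 against 16.8 CPM) and Hsph1 (71.0 against 37.9 CPM) reached the 50 CPM minimum only through the cycling sum, on 11 and 14 UMIs. Nothing is therefore read from the count and median of the stressed library. The cell with 55 Hsp90aa1 UMIs had 6 S and G2/M UMIs after thinning, so it was among the cycling cells. It held 8 of the 14 Hsph1 UMIs.

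The neural-like class held both progenitors and neurons, so cells were further split by 3 progenitor markers (Sox2, Fabp7 and Nes) against 6 neuron markers (Stmn2, Tubb3, Dcx, Mapt, Elavl3 and Elavl4), all from the fixed neural list. Among non-cycling control cells, Cirbp stood at 735 CPM (602–889) in 80 cells with neuron markers and 144 CPM (80.3–237) in 30 cells with progenitor markers. In the stressed library it stood at 550 CPM (461–651) in 68 and 156 CPM (106–222) in 39 cells. The log2 ratios of 2.36 (1.57 to 3.24) and 1.82 (1.24 to 2.43) were 2.20 and 1.78 without the barcodes found in both libraries. Within cells with progenitor markers, cycling over non-cycling gave log2 −0.25 (−1.62 to 1.04) for Cirbp in the control library, on 9 and 15 UMIs, and 0.21 (−0.61 to 1.02) in the stressed library, on 25 and 31 UMIs. Both intervals were wide and crossed 0. The control interval also held −1.20, the ratio of all control neural-like cells, so it cannot show whether the difference was kept. The stressed interval lay above −0.98, the ratio of all stressed neural-like cells. Rbm3 kept its difference among cells with progenitor markers. It stood at 523 CPM (372–715) in cycling and 258 CPM (170–376) in non-cycling control cells, log2 1.02 (0.27 to 1.78). In the stressed library it stood at 485 CPM (376–616) and 262 CPM (196–344), log2 0.89 (0.34 to 1.44). Neurons and progenitors differed less in Rbm3, by log2 0.71 (0.04 to 1.42) and 0.18 (−0.35 to 0.72). Without the barcodes found in both libraries the control value was 0.62 (−0.15 to 1.44), with an interval across 0, and the stressed levels were 300.1 and 300.4 CPM. Cycling over non-cycling cells with progenitor markers then gave 1.15 (0.26 to 2.07) and 0.86 (0.28 to 1.46) for Rbm3 and −0.28 and 0.20, with intervals across 0, for Cirbp.

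**Figure D4:**
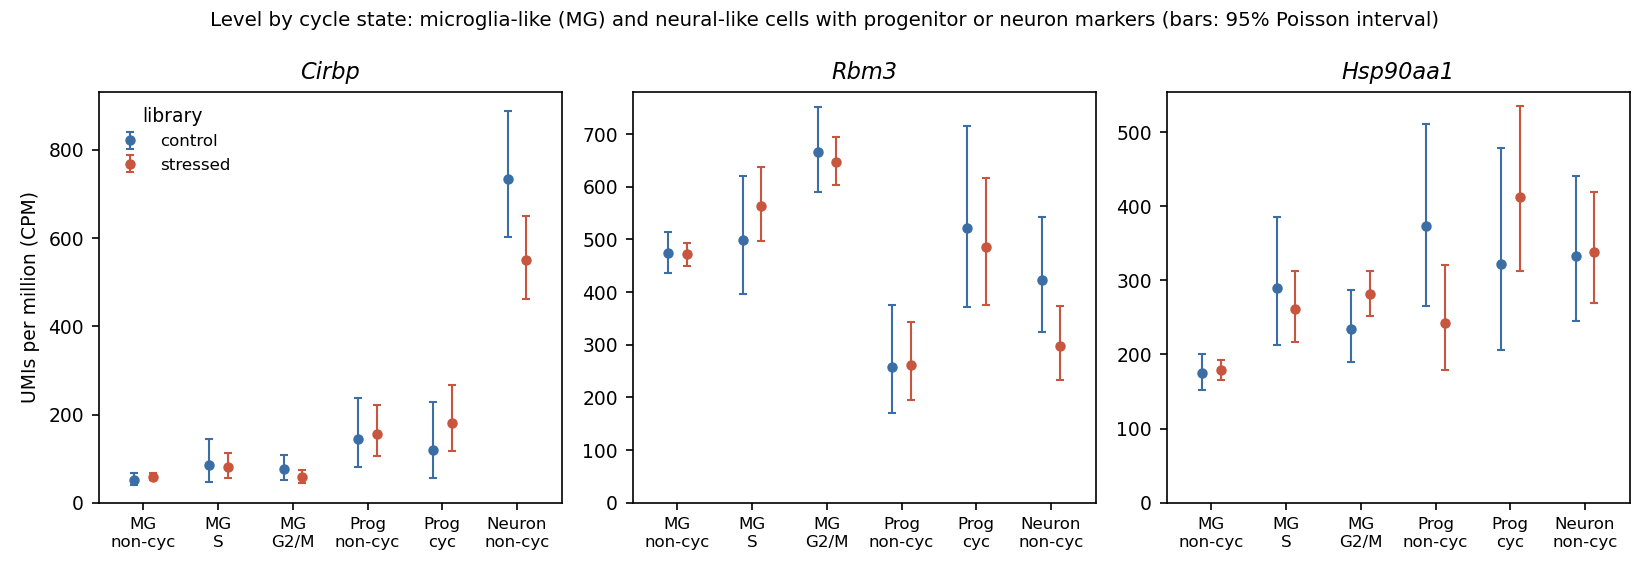
Levels of Cirbp, Rbm3 and Hsp90aa1 (y axis, CPM, from 0) in microglia-like cells (MG) by cycle state and in neural-like cells with progenitor (Prog) or neuron markers (x axis); points are libraries, bars 95% Poisson intervals. Cirbp is highest in neuron-marker cells, at 735 and 550 CPM, and Rbm3 is higher in cycling than in non-cycling progenitor-marker cells of both libraries.

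The scatter from cell to cell was described for 3 genes in microglia-like cells. At 1100 UMIs per cell, the variance over the mean in control and stressed microglia-like cells was 1.06 and 1.08 for Cirbp, 1.10 and 1.19 for Rbm3, and 1.27 and 1.21 for Hspa8, where a Poisson count has a ratio of 1. At the low mean of Cirbp a ratio near 1 says little. Rbm3 was found in 41.0% (37.1 to 44.9%) and 40.8% (38.0 to 43.7%) of these cells. In stressed neural-like cells the ratio of Hsp90aa1 was 1.80, the class with the cell of 55 UMIs.

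Rbm3 lies on the X chromosome (8138975 to 8145880, minus strand, GRCm38), and the pools differed in sex make-up. Among control microglia-like cells, those with Xist and no Y transcript had 483 CPM of Rbm3 and those with Y transcripts and no Xist 533 CPM, log2 −0.14 (−0.39 to 0.11). Hsp90aa1, on chromosome 12 (110690605 to 110702728, minus strand), stood at 148 CPM on 93 UMIs in the former against 250 CPM on 111 UMIs in the latter, log2 −0.76 (−1.17 to −0.35). When only Xist-positive, Y-negative cells of both libraries were summed, stressed over control was log2 0.50 for Hsp90aa1, against 0.07 over all microglia-like cells, 0.38 for Cirbp and 0.10 for Rbm3. The part of sex in the Hsp90aa1 and Cirbp levels was not tested, since the stressed library had 0 microglia-like cells with Y transcripts alone.

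Over the 8 sums of 4 classes by 2 libraries, the features most like Cirbp, by Pearson r of log2(CPM + 10), were Gm28050, Elob and Mllt3 (r = 0.995 to 0.994). Those most like Rbm3 were Klf6, Pygl and Myl12a (r = 0.965 to 0.958), and those most like Hsp90aa1 were Hmgn1, Ogt and Bola1 (r = 0.993 to 0.979). Hspa8 was most like Pram1, Ly6c2 and Bcl2a1a (r = 0.980 to 0.973), Ly6c2 being one of the markers that define the monocyte-like class. The 8 sums share 2 libraries and are no independent samples.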

How the data were processed

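Per the labels, sorted cells went through 10x Genomics 3′ v3 chemistry, and Cell Ranger 3.0.0, STAR and Seurat 2.4 with GRCm38.p5 (mm10) are named in the submitters' processing notes. The deposited values are UMI counts per gene and cell, unnormalized, for the 1156 control and 1467 stressed barcodes that the authors kept. About 6000 of the 8834 and 9055 sorted cells were loaded, per the labels.

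Cells under 500 genes or over 10% mitochondrial UMIs were left out. A class was the marker list with most UMIs, at least 2 and at least 2 times the next list. No doublets were removed in the reported values, and 37 and 49 were removed in an alternative. Counts were summed per class, and log2 ratios of CPM carry exact 95% intervals for counting error. A sum of 0 allows up to 3 counts. Analyses used Python 3.11.15, numpy 2.4.6, scipy 1.17.1, scanpy 1.11.5, and R 4.3.3 with edgeR 4.0.16 (TMM) and DESeq2 1.42.0 (size factors) for scaling only. The interval code was tested on simulated data.

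The 10 genes and all lists were chosen with earlier results of these data known. Named beside them were up to 4 genes per pathway list with the largest absolute ratio among those of at least 50 CPM, the 3 features most like each gene, and class or sex markers. The lists held HSP70 and HSP110, HSP90 and co-chaperone, J-domain, small heat shock and BAG, chaperonin, heat shock factor, SR and Clk, and immediate early genes. The cycling split of neural-like cells, their progenitor and neuron split, the removal of barcodes found in both libraries and the removal of the top 1% of cells were added after the data were seen.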

Additional observations from a re-analysis of the deposited data

Results flagged for a closer look

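In the control library, Cirbp stood on opposite sides of no change in 2 classes under the same contrast. Cycling over non-cycling cells gave log2 0.60 (0.01 to 1.17) in microglia-like cells, on 45 and 64 UMIs, and −1.20 (−1.83 to −0.61) in neural-like cells, on 29 and 133 UMIs. In the stressed library the same contrasts gave 0.14 (−0.21 to 0.48) and −0.98 (−1.53 to −0.47). Under alternatives the control microglia-like ratio ran from 0.11 to 0.73 and the control neural-like ratio from −1.64 to −0.30. Among control neural-like cells with progenitor markers the ratio was −0.25 (−1.62 to 1.04), on 9 and 15 UMIs. The difference between the classes was not tested, since each class had 1 library.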

How the results depend on the processing

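Of 958 log2 ratios of the 10 genes under alternatives, 868 lay inside the counting interval of the reported value, 90 lay outside it, and 0 called values changed sign. Counts of genes past 1.5 times that moved by over 1.5 times are listed, other counts staying within that; the cause was not tested. Stressed over control in microglia-like cells: 0, and 2 with no CPM minimum (Hspa1a and Hspa1b). Stressed over control in neural-like cells: 0, and 1 with a 20 CPM minimum, no minimum, per-cell means or cells with Xist and no Y transcript. Cycling over non-cycling microglia-like cells, control library: 1, with 2 at a 20 CPM minimum, 3 with no minimum, 2 among cells low in immediate early genes, without the top 1% of cells or with S cells only, and 0 at 2 times, with TMM or DESeq2 factors, a cycling limit of 8 or G2/M cells only. The same in the stressed library: 1, and 0 at 2 times, with TMM or DESeq2 factors, the stricter cell filter or S cells only. Neural-like over microglia-like, control library: 3, and 5 with no minimum, with 4 at 20 CPM and 2 at 2 times, without the top 1% of cells or without barcodes found in both libraries. The same in the stressed library: 2, with 3 at 20 CPM, no minimum, thinned, in non-cycling cells or with the stricter cell filter, 1 at 2 times and 4 with TMM or DESeq2 factors. Border-associated over microglia-like, control library: 0, and 1 in thinned or in non-cycling cells. The same in the stressed library: 1, with 2 at 20 CPM, 3 with no minimum or thinned, and 0 at 2 times or in non-cycling cells. Cycling over non-cycling neural-like cells, control library: 2, with 1 at 2 times or with S cells only and 4 in cells low in immediate early genes. The same in the stressed library: 6, with 3 at 2 times and 2 in cells low in immediate early genes. TMM factors also moved the split of all features into higher and lower by over 10 percentage points in most comparisons: from 183 and 387 to 243 and 273 (stressed over control, neural-like), from 375 and 161 to 317 and 226 and from 317 and 75 to 250 and 139 (cycling microglia-like), from 1791 and 1004 to 1247 and 1381 and from 1560 and 917 to 976 and 1398 (neural-like over microglia-like), and, in the stressed library, from 664 and 695 to 506 and 882 (border-associated) and from 940 and 566 to 729 and 764 (cycling neural-like).

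Dam, litter, embryo number, sex make-up, depth and library cannot be told apart from the cold exposure. Genes under 50 CPM (Hspa1a, Hspa1b, mostly Dnajb1 and Hsph1) had few UMIs in most sums, so their ratios carry wide intervals. No paired analysis was possible because each condition had 1 library.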
